A study of Mus musculus with 16 samples.

Results

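Interferon-stimulated genes are the genes that a cell switches on after an interferon has bound its receptor, and 36 of them were followed here through the mouse liver. They were taken by symbol from a table of read counts with 41585 rows, and all 36 had a row. The set holds RNA sensors, transcription factors, antiviral effectors, guanylate-binding proteins, immunity-related GTPases and 1 chemokine. The livers came from C57BL/6 mice labelled Cyp2b-null or hCYP2B6-Tg, the second carrying the human CYP2B6 drug-metabolizing enzyme, and the study asked what CYP2B6 does in diet-induced obesity. Every group had eaten a diet of 60% fat over 16 weeks, so no group shows these genes on ordinary chow. There were 4 groups of 4 libraries, namely Cyp2b-null females, hCYP2B6-Tg females, Cyp2b-null males and hCYP2B6-Tg males. The sources used here do not give the promoter of the transgene, the Cyp2b genes deleted, whether hCYP2B6-Tg mice also lack them, or the age of the mice. The labels do not say that each library is 1 animal. The p-values below set differences against the spread between these libraries, which may not be the spread between animals.

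Type I interferons signal through the receptor IFNAR1/IFNAR2 and the kinases JAK1 and TYK2 to a complex that holds STAT2 and IRF9 and binds the interferon-stimulated response element (ISRE). Interferon gamma acts through IFNGR1/IFNGR2 and the gamma-activated site (GAS), and it drives most of the GTPases among these genes. In the liver both hepatocytes and Kupffer cells, the resident macrophages, express interferon-stimulated genes, and a low level is kept up without infection.

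Promoter stretches that hold an ISRE match are shown here for members of several roles, and not every member promoter had one. The promoters are RefSeq's for GRCm38.p6, from 250 bases before to 50 after the annotated start, and 25 of the 36 members had one. Each stretch is written 5′ to 3′ on the gene's strand, and the capitals mark matches to the ISRE core, searched as GAAA, any 2 bases, GAAA, or on the other strand TTTC, any 2 bases, TTTC.
Ifit1: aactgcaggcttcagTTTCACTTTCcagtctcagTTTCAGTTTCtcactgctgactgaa
Isg15: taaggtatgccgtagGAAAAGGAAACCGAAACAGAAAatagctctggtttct
Oas1a: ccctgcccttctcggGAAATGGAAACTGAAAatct
Oas1g: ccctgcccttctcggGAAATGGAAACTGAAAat
Bst2: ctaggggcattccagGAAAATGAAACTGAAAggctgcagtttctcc
Stat2: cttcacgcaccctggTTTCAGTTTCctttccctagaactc
Gbp3: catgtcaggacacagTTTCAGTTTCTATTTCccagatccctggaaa
Gbp7: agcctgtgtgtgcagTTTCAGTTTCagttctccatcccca
Igtp: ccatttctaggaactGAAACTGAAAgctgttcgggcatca
Rsad2: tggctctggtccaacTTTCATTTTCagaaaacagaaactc
Cxcl10: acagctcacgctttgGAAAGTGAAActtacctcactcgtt

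On GRCm38.p6 these stretches lie upstream of the start site that the promoter table uses for each gene. That site is not always the outer end of the RefSeq gene, whose span takes in 14 bases of the Gbp3 stretch and 19 of the Oas1a stretch. Ifit1 is at chr19:34640770-34640828 on the plus strand. Isg15 is at chr4:156200860-156200911, Oas1a at chr5:120907526-120907560, Oas1g at chr5:120887614-120887646 and Bst2 at chr8:71537572-71537617, all on the minus strand. Stat2 is at chr10:128270261-128270300, Gbp3 at chr3:142559984-142560029, Gbp7 at chr3:142530268-142530307 and Igtp at chr11:58199507-58199546, on the plus strand. Rsad2 is at chr12:26456548-26456587 and Cxcl10 at chr5:92349078-92349117, on the minus strand. Isg15 held 3 overlapping matches, the first at base -78 from the start, and Ifit1 held a pair that starts at -104 and -85. The Oas1a and Oas1g stretches are the same letters up to the last bases, and these genes are near-copies of each other. The ISRE matched on either strand in 15 of the 25 member promoters (60%), against 3.26% of the 9585 tested genes that had a promoter in the table. The GAS, searched as TTCNNNGAA, which is its own reverse complement, matched in 5 of 25 (20%), against 7.40%. Promoters of Ifi44, Oasl2, Ddx58 and Irf7 were among those that held no ISRE match in this window. A match describes letters and does not show that a factor was bound.

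The libraries held 5584587 to 9672708 counts, of which the 36 members took 5931 to 12079 counts, or 0.0852% to 0.145%. Of 5 mouse Cyp2b genes with a row, Cyp2b10, Cyp2b19 and Cyp2b23 each had at most 1 count in any Cyp2b-null library. Summed over these 3, which were put together after their values were seen, hCYP2B6-Tg libraries had 6 to 50 counts. Cyp2b9 overlapped between genotypes (0 to 8 counts in Cyp2b-null and 1 to 27 in hCYP2B6-Tg libraries), as did Cyp2b13 (0 to 4 and 0 to 3), and the human transgene was not analysed here. Male libraries numbered 4 had the highest sums of some cell type marker lists. Cyp2b-null male 4 had summed pancreatic acinar markers of 56.7 CPM (counts scaled to the size of the library) and cholangiocyte markers of 98.9 CPM, and hCYP2B6-Tg male 4 had the highest adipocyte sum, 69.4 CPM. The adipocyte sum was higher in every male library than in every female library, so that list also differed by sex. Results that rest on them are given with and without both.

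All 36 members were detected and passed the filter on low counts. Of these, Bst2 (tetherin, which holds budding virus at the cell surface) was the most abundant at a mean of 118 RPKM (CPM per kilobase of exon), followed by the immunity-related GTPase Iigp1 at 78.2 and Ifi27l2a, a mitochondrial interferon-induced protein, at 24.4. Oas1g, Mx1 and Oas3 were the least abundant, at 0.427, 0.397 and 0.264 RPKM. RefSeq lists Mx1 and Mx2 as transcribed pseudogenes in this genome. Library values below are CPM within 1 gene, in ascending order of the number in the library's title: 1, 3, 4 and 5 for Cyp2b-null females, 1, 2, 4 and 5 for hCYP2B6-Tg females, 1, 2, 3 and 4 for Cyp2b-null males and 2, 3, 4 and 5 for hCYP2B6-Tg males. In CPM, 3 counts stand for 0.313 to 0.542, so values of Oas1g and Igtp near these rest on a few reads. The map of the 36 members over 16 libraries shows male libraries lower for most rows, with no such step between genotypes.

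**Figure D1:**
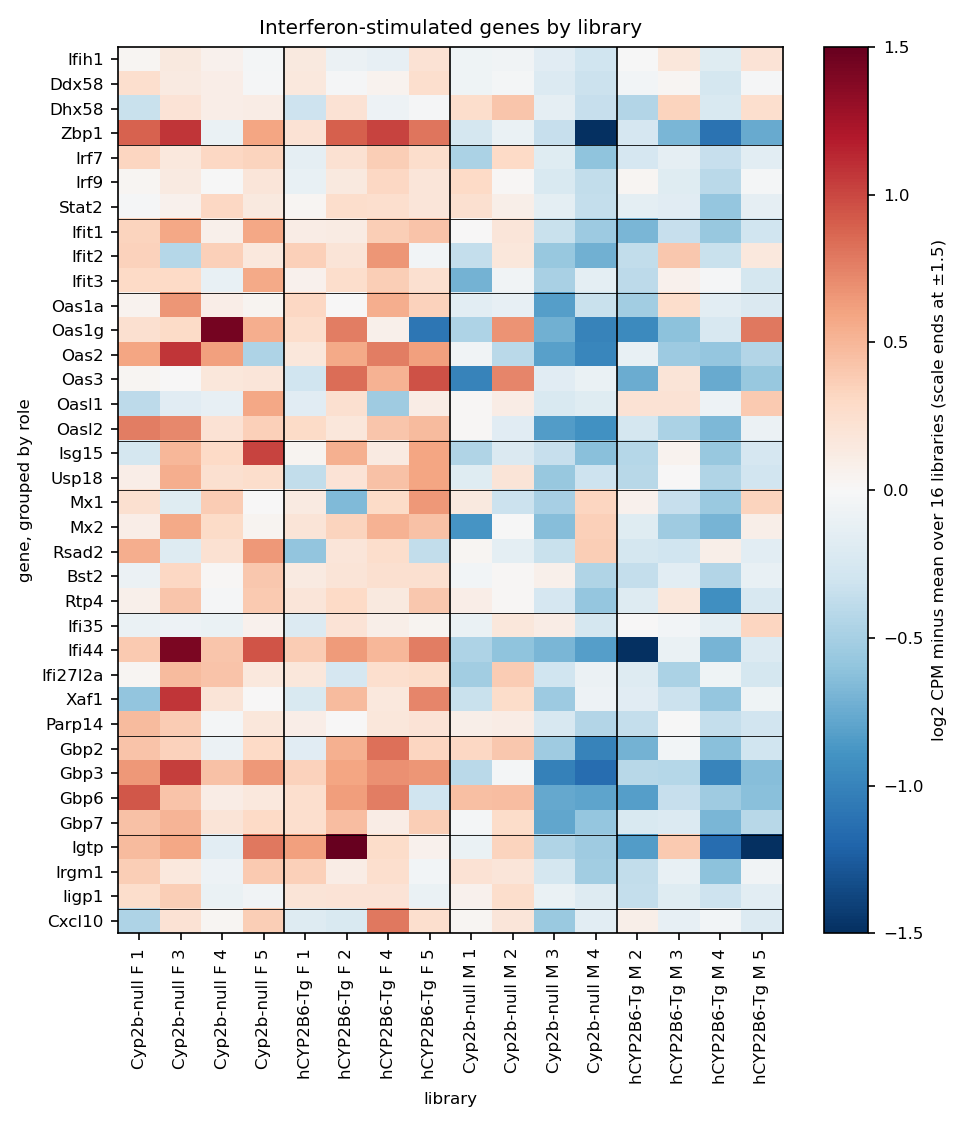
Colour gives each member's log2 CPM in each library minus that gene's mean over the 16 libraries. Rows are the 36 members ordered by role and columns are libraries ordered by group. Most rows are lower in the male columns, and Cyp2b-null male 2 is the highest of its group in 25 of 36 rows.

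No interferon-stimulated gene passed the test between hCYP2B6-Tg and Cyp2b-null livers, in either sex. With edgeR's quasi-likelihood test and Benjamini-Hochberg adjustment over 13470 genes, 0 of 36 members were called in females, where 0% of all genes were. The count was also 0 of 36 in males (0.126% of genes), over both sexes (0.0148%) and for the difference of the genotype effect between sexes (0.0371%). DESeq2 and limma voom called 0 members in each of these comparisons too. At an unadjusted threshold of 0.05, edgeR had 1 member in females (7.27% of genes), 1 in males (7.01%), 1 over both sexes (6.81%) and 0 for the difference (7.55%). The median log2 fold change of the members, hCYP2B6-Tg over Cyp2b-null, was -0.0025 in females and -0.088 in males, against 0.0018 and -0.0040 over all genes. With 1 library left out, the female median ran from -0.059 to 0.012 and the male median from -0.14 to 0.059, so the sign of either rests on single libraries. The male median was above 0 without Cyp2b-null male 2 (0.059) or hCYP2B6-Tg male 4 (0.020), and the female median without Cyp2b-null female 3 (0.012) or hCYP2B6-Tg female 1 (0.0064). The male median was also over 1.5 times its size without Cyp2b-null male 3 (-0.135), Cyp2b-null male 4 (-0.134) or hCYP2B6-Tg male 5 (-0.138), and smaller without Cyp2b-null male 1 (-0.039).

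Rsad2 (viperin, an antiviral enzyme that makes a chain-terminating nucleotide) had the smallest p in females. Its level was 16.9, 9.98, 13.5 and 18.1 CPM in Cyp2b-null females and 7.53, 13.04, 13.8 and 8.83 in hCYP2B6-Tg females. In males it was 11.7, 10.3, 9.06 and 14.8 CPM in Cyp2b-null and 9.47, 9.23, 12.2 and 10.2 in hCYP2B6-Tg libraries. The groups overlapped in each sex, and the log2 fold change in females was -0.44 ± 0.20 (standard error, as after each ± on a log2 value), with an edgeR adjusted p of 0.656. Oas3, a synthetase of the 2-5A messenger that activates RNase L, read 1.76, 1.72, 1.96 and 1.98 CPM in Cyp2b-null females and 1.34, 3.26, 2.57 and 3.58 in hCYP2B6-Tg females. Its male values were 0.722, 3.03, 1.49 and 1.58 CPM in Cyp2b-null and 0.916, 2.0, 0.900 and 1.07 in hCYP2B6-Tg livers. Oas3 had the smallest p of any member for the difference of the genotype effect between sexes, at -1.06 ± 0.57 on the log2 scale, with an adjusted p of 0.682. Its female and male estimates were 0.53 and -0.53. Oas1g, of the same synthetase family, read 1.05, 1.09, 2.76 and 1.35 CPM in Cyp2b-null females and 1.08, 1.63, 0.908 and 0.256 in hCYP2B6-Tg females. The male libraries of Oas1g read 0.542, 1.51, 0.406 and 0.288 CPM in Cyp2b-null and 0.305, 0.462, 0.675 and 1.66 in hCYP2B6-Tg. All 4 groups of Oas1g overlapped, and the genotype estimate in females was -0.71 ± 0.54 with an adjusted p of 0.830.

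Iigp1, a GTPase that attacks the vacuoles of intracellular parasites, had the smallest p in males. It read 471, 542, 421 and 392 CPM in Cyp2b-null males and 350.0, 396, 363 and 404 in hCYP2B6-Tg males. The log2 fold change was -0.27 ± 0.11, with an adjusted p of 0.596, and the highest hCYP2B6-Tg male lay above the lowest Cyp2b-null male. Ifih1 (MDA5, a sensor of long double-stranded RNA) had a male estimate of 0.20 ± 0.10, adjusted p 0.728. Ifit1, which binds viral RNA caps, had the smallest p over both sexes, at -0.23 ± 0.11 with an adjusted p of 0.717. Intervals were narrow for abundant members: the 95% interval of the genotype effect on Bst2 ran from -0.22 to 0.27 in females and from -0.42 to 0.07 in males. No member had groups that did not overlap between genotypes, against 3.50% of genes in females and 4.77% in males. A p that misses the threshold does not show that the genotypes have equal levels.

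**Figure D2:**
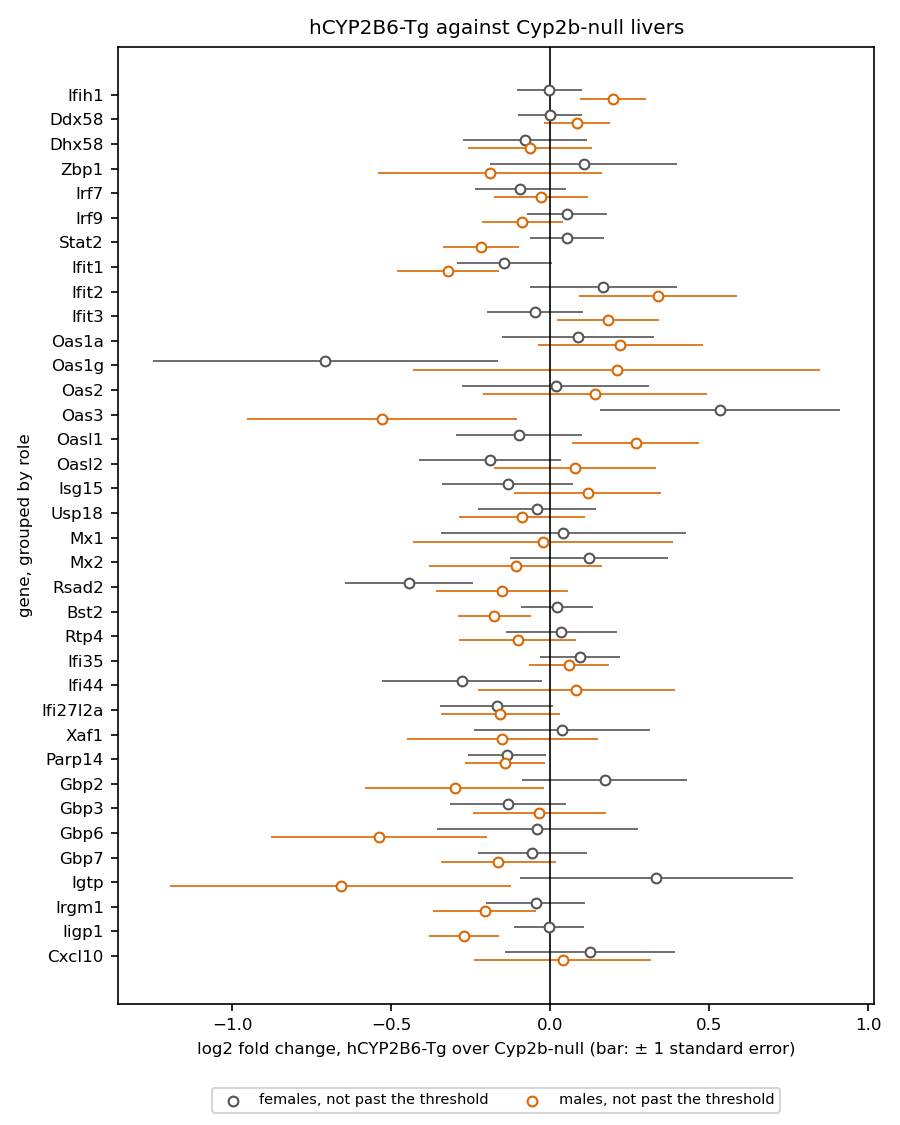
Points give the log2 fold change of each member, hCYP2B6-Tg over Cyp2b-null, in females and in males, and bars give 1 standard error. Open points did not pass an adjusted p of 0.05, and all of them are open, on both sides of 0.

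Between the sexes the members differed, and every member that passed was lower in males. In Cyp2b-null livers 9 of 36 were lower in males, namely Gbp3, Ifi44, Oasl2, Isg15, Ifit3, Ifit1, Oas2, Zbp1 and Irf7, where 3.50% of all genes were called lower. In hCYP2B6-Tg livers 11 of 36 were lower in males, namely Gbp3, Ifit1, Ifi44, Zbp1, Bst2, Gbp7, Stat2, Igtp, Iigp1, Oas2 and Oasl2, where 4.54% of genes were called lower. No member was called higher in males, where 3.93% of genes in Cyp2b-null and 5.49% in hCYP2B6-Tg livers were. The estimate lay below 0 in 34 of 36 members in Cyp2b-null and in 32 of 36 in hCYP2B6-Tg livers, against 50.6% and 52.5% of genes. All libraries of the males lay below all of the females for 6 of 36 members in Cyp2b-null livers (5.66% of genes) and for 14 of 36 in hCYP2B6-Tg livers (7.41%). The median log2 difference of the members, male minus female, was -0.42 in Cyp2b-null and -0.46 in hCYP2B6-Tg livers, against -0.0041 and -0.017 over all genes.

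These sex comparisons share no library, but 1 model of all 16 libraries gave the spread for both, so they are not independent tests. Of the members, 6 passed in both: Gbp3, Ifi44, Ifit1, Zbp1, Oas2 and Oasl2. They are 66.7% of the Cyp2b-null list and 54.5% of the hCYP2B6-Tg list, and over all genes the corresponding shares were 59.1% and 43.7%. The sign of the sex estimate was the same in both genotypes for 34 of 36 members (94.4%), against 66.0% of genes. The 8 members called in 1 genotype are not shown to differ between genotypes: the test of that difference, which is the same contrast as above, called 0 of 36. Averaged over both genotypes, a comparison added after the data had been seen, 23 of 36 members were lower in males (8.06% of genes were called lower) and 0 higher (8.54%), with 33 of 36 estimates below 0 (51.8% of genes) and a median of -0.48. Without the male libraries numbered 4, also chosen after seeing the data, 6 members were lower in Cyp2b-null, 6 in hCYP2B6-Tg and 14 over both genotypes, where 2.86%, 3.50% and 6.32% of genes were called lower. The medians were then -0.38, -0.42 and -0.43, against -0.0084, -0.015 and -0.013 over all genes. The calls lost in this way were Ifit1, Oas2 and Irf7 in Cyp2b-null, and Oas2, Oasl2, Stat2, Igtp and Iigp1 in hCYP2B6-Tg livers. Over both genotypes they were Ddx58, Oas1a, Stat2, Ifi27l2a, Rtp4, Gbp2, Igtp, Irgm1 and Iigp1. Leaving out single libraries moved the count to 4 in Cyp2b-null (without Cyp2b-null female 5 or Cyp2b-null male 3) and to 5 in hCYP2B6-Tg livers (without hCYP2B6-Tg female 2 or hCYP2B6-Tg male 4).

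**Figure D3:**
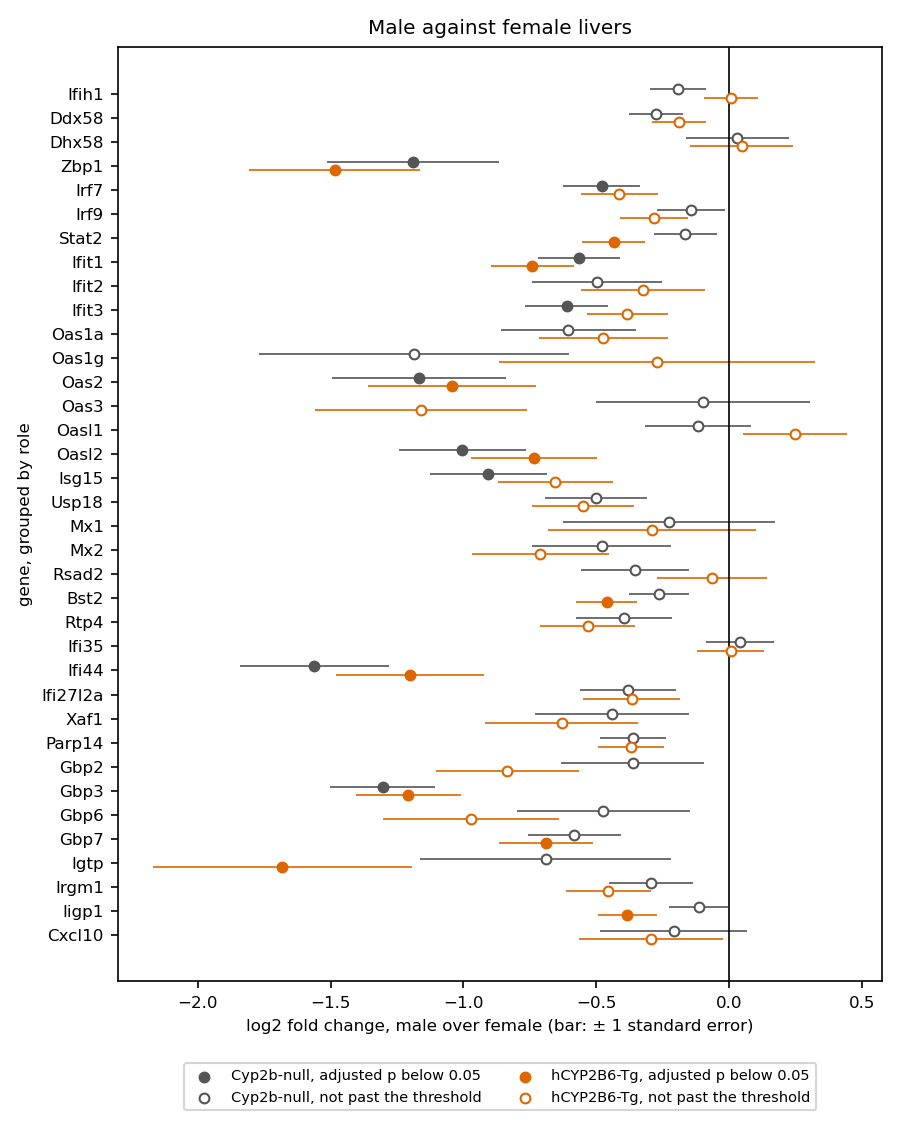
Points give the log2 fold change of each member, male over female, in Cyp2b-null and in hCYP2B6-Tg livers, with bars of 1 standard error. Filled points passed an adjusted p of 0.05, and they all lie below 0: 9 in Cyp2b-null and 11 in hCYP2B6-Tg livers.

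Among the 4 nucleic acid sensors, Zbp1 was lower in males in both genotypes and the others were not called in either. Zbp1 (chr2:173206612-173218959, minus strand; gene positions here are RefSeq's on GRCm38.p6) senses Z-form nucleic acid and can start necroptosis. Females had 18.8, 21.4, 9.33 and 15.3 CPM in Cyp2b-null and 11.7, 18.9, 20.6 and 17.8 in hCYP2B6-Tg livers, against 8.31, 9.36, 7.85 and 2.59 in Cyp2b-null males and 8.40, 6.15, 4.50 and 5.82 in hCYP2B6-Tg males. The hCYP2B6-Tg sexes did not overlap, whereas Cyp2b-null male 2 lay just above Cyp2b-null female 4. Zbp1 was 2.28-fold lower in males in Cyp2b-null livers (log2 -1.19 ± 0.32, adjusted p = 0.0342) and 2.80-fold lower in hCYP2B6-Tg livers (log2 -1.49 ± 0.32, adjusted p = 0.00715). The Cyp2b-null call was lost without any 1 of Cyp2b-null females 1, 3 and 5, Cyp2b-null males 1 and 3 and hCYP2B6-Tg male 3, with adjusted p up to 0.0912. Ifih1 read 43.9, 47.4, 44.9 and 41.99 CPM in Cyp2b-null females, 47.7, 40.4, 39.5 and 50.04 in hCYP2B6-Tg females, 41.2, 41.5, 38.3 and 34.97 in Cyp2b-null males and 42.8, 48.5, 37.9 and 49.6 in hCYP2B6-Tg males. Its Cyp2b-null sexes did not overlap, yet the difference was -0.19 ± 0.10 with an adjusted p of 0.322, and in hCYP2B6-Tg livers it was 0.01 ± 0.10. Ddx58 (RIG-I, a sensor of RNA with 5′ triphosphate ends) was lower in males only in the comparison over both genotypes, at -0.23 ± 0.07 (adjusted p = 0.0260). That call was lost without Cyp2b-null female 1, hCYP2B6-Tg female 5, Cyp2b-null male 4 or hCYP2B6-Tg male 4, with adjusted p up to 0.0665. Dhx58 (LGP2), which regulates the other RNA helicases, had a log2 estimate of 0.04 ± 0.14 over both genotypes.

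Of the 3 transcription factors, Irf7 passed in Cyp2b-null and Stat2 in hCYP2B6-Tg livers. Irf7, which drives the amplification of type I interferon, read 39.2, 35.1, 38.9 and 39.6 CPM in Cyp2b-null females and 28.5, 36.8, 40.4 and 37.6 in hCYP2B6-Tg females. Its male values were 22.6, 38.5, 27.6 and 20.6 CPM in Cyp2b-null and 26.3, 28.6, 24.7 and 28.1 in hCYP2B6-Tg livers. Cyp2b-null male 2 lay among the females of its genotype, and the other male libraries of that genotype lay below them. The log2 difference was -0.48 ± 0.15 in Cyp2b-null (adjusted p = 0.0444) and -0.41 ± 0.14 in hCYP2B6-Tg livers (adjusted p = 0.0733). The Cyp2b-null call held in 4 of the 16 fits that left out 1 library (without hCYP2B6-Tg female 1 or 4, Cyp2b-null male 2 or hCYP2B6-Tg male 4), and its largest adjusted p in the others was 0.167. Stat2, a subunit of the ISRE-binding complex, read 57.8, 61.1, 72.9 and 64.9 CPM in Cyp2b-null females and 60.1, 70.2, 69.9 and 66.4 in hCYP2B6-Tg females. Stat2 in males read 69.2, 62.3, 52.8 and 45.6 CPM in Cyp2b-null and 53.1, 52.01, 39.2 and 53.4 in hCYP2B6-Tg livers. Its hCYP2B6-Tg sexes did not overlap and differed by -0.43 ± 0.12 (adjusted p = 0.0183), while the Cyp2b-null sexes overlapped and differed by -0.16 ± 0.12 (adjusted p = 0.485). The call was lost without hCYP2B6-Tg female 2, hCYP2B6-Tg female 4 or hCYP2B6-Tg male 4, with adjusted p up to 0.0857. For Irf9, the DNA-binding subunit of that complex, the estimate over both genotypes was -0.21 ± 0.09 (adjusted p = 0.111).

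The 3 Ifit genes encode tetratricopeptide proteins that bind foreign RNA, and 2 of them passed. Ifit1 (chr19:34640889-34650009, plus strand), whose promoter stretch above holds a pair of ISRE matches, had 24.1, 28.7, 20.03 and 28.7 CPM in Cyp2b-null females and 20.6, 20.8, 24.7 and 25.7 in hCYP2B6-Tg females. Males had 19.1, 21.6, 15.02 and 12.95 CPM in Cyp2b-null and 11.8, 14.9, 12.7 and 15.4 in hCYP2B6-Tg livers. Every hCYP2B6-Tg male lay below every hCYP2B6-Tg female, whereas Cyp2b-null male 2 lay above the lowest Cyp2b-null female. Ifit1 was 1.67-fold lower in hCYP2B6-Tg males (log2 -0.74 ± 0.16, adjusted p = 0.00245) and 1.48-fold lower in Cyp2b-null males (log2 -0.56 ± 0.15, adjusted p = 0.0222). The second call was lost without Cyp2b-null female 3 or 5 or Cyp2b-null male 3 or 4, with adjusted p up to 0.102. Ifit3 read 22.8, 22.9, 17.2 and 27.5 CPM in Cyp2b-null females, 19.4, 22.2, 24.1 and 21.9 in hCYP2B6-Tg females, 11.2, 17.9, 13.1 and 16.7 in Cyp2b-null males and 14.05, 19.4, 18.3 and 15.3 in hCYP2B6-Tg males. The Cyp2b-null sexes of Ifit3 overlapped in 1 female and 1 male library. It was 1.53-fold lower in Cyp2b-null males (log2 -0.61 ± 0.16, adjusted p = 0.0145), a call lost without Cyp2b-null female 5 or Cyp2b-null male 1 or 3 (adjusted p up to 0.0749). In hCYP2B6-Tg livers Ifit3 differed by -0.38 ± 0.15 (adjusted p = 0.127). Its near-copy Ifit3b shares 51.2% of the 50-base stretches of Ifit3, so reads may have been split between them. Ifit2 had 8.43, 4.83, 8.52 and 7.40 CPM in Cyp2b-null females, 8.47, 7.57, 10.6 and 6.40 in hCYP2B6-Tg females, 5.06, 7.43, 4.33 and 3.89 in Cyp2b-null males and 5.04, 8.77, 5.18 and 7.36 in hCYP2B6-Tg males, and its sexes overlapped in both genotypes. Ifit2 was not called in any comparison, with an estimate of -0.41 ± 0.17 over both genotypes (adjusted p = 0.103).

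Oas2 and Oasl2 were the members of the 2-5A synthetase family that passed in both genotypes. Oas2 (chr5:120730333-120749886, minus strand) makes 2-5A, and Oasl2 (chr5:114896926-114912245, plus strand) is a ubiquitin-like relative. Oas2 read 4.39, 6.24, 4.49 and 1.98 CPM in Cyp2b-null females and 3.23, 4.31, 4.996 and 4.48 in hCYP2B6-Tg females, against 2.71, 2.06, 1.49 and 1.30 in Cyp2b-null males and 2.60, 1.85, 1.80 and 2.02 in hCYP2B6-Tg males. Cyp2b-null female 5 lay among the males, and the other females of that genotype lay above them. Oas2 was 2.25-fold lower in Cyp2b-null males (log2 -1.17 ± 0.33, adjusted p = 0.0270) and 2.06-fold lower in hCYP2B6-Tg males (log2 -1.04 ± 0.32, adjusted p = 0.0359). These calls rest on few libraries: the first was lost without Cyp2b-null female 3 or 4 or Cyp2b-null male 2, 3 or 4 (adjusted p up to 0.112), the second without hCYP2B6-Tg female 2, 4 or 5 or hCYP2B6-Tg male 3, 4 or 5 (up to 0.0940), and over both genotypes none was lost. Oasl2 read 8.43, 8.11, 5.64 and 6.25 CPM in Cyp2b-null females, 5.92, 5.47, 6.51 and 6.78 in hCYP2B6-Tg females, 4.88, 4.26, 2.57 and 2.45 in Cyp2b-null males and 3.97, 3.38, 2.93 and 4.51 in hCYP2B6-Tg males. All 8 male libraries lay below all 8 female libraries, which was so for 3 members (1.70% of genes were lower in this way). Oasl2 was 2.01-fold lower in Cyp2b-null males (adjusted p = 0.00845, kept in all 16 leave-outs) and 1.66-fold lower in hCYP2B6-Tg males. The adjusted p of 0.0482 in hCYP2B6-Tg livers was near the threshold and rose above it in 11 of the 16 leave-outs, up to 0.148, all but those without Cyp2b-null female 3, Cyp2b-null male 1, 3 or 4 or hCYP2B6-Tg male 5. Oas1a was lower in males over both genotypes (-0.54 ± 0.18, adjusted p = 0.0353), and this was lost in 9 leave-outs (adjusted p up to 0.0861), all but those without Cyp2b-null female 1, 4 or 5, hCYP2B6-Tg female 2, Cyp2b-null male 1 or 2 or hCYP2B6-Tg male 3. Oas1a and Oas1g share 57.6% and 54.7% of their 50-base stretches with close relatives, so their levels are uncertain. Oas1g, Oas3 and Oasl1 had estimates of -0.73, -0.63 and 0.07 over both genotypes and were not called.

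Isg15, the ubiquitin-like protein that is joined to targets during the interferon response, passed in Cyp2b-null livers. Isg15 (chr4:156199424-156200818, minus strand) read 7.90, 13.6, 11.7 and 19.5 CPM in Cyp2b-null females and 9.82, 13.9, 10.4 and 14.5 in hCYP2B6-Tg females. In males it read 6.86, 8.12, 7.44 and 6.04 CPM in Cyp2b-null and 7.02, 9.85, 6.30 and 7.95 in hCYP2B6-Tg livers. Cyp2b-null female 5 was the highest library and Cyp2b-null female 1 lay among the males. It was 1.87-fold lower in Cyp2b-null males (log2 -0.91 ± 0.22, adjusted p = 0.00949; 0.0737 without Cyp2b-null female 5). The hCYP2B6-Tg estimate was -0.65 ± 0.22, with an adjusted p of 0.0552. Usp18, the protease that removes ISG15 and restrains IFNAR2, was lower in males over both genotypes (-0.52 ± 0.14, adjusted p = 0.00774).

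Of the membrane and antiviral effectors, Bst2 was lower in hCYP2B6-Tg males. Bst2 read 98.7, 130.3, 106 and 139.5 CPM in Cyp2b-null females and 115, 120.2, 124 and 124 in hCYP2B6-Tg females, and 102, 106, 110.4 and 76.8 in Cyp2b-null and 82.01, 93.9, 77.6 and 97.2 in hCYP2B6-Tg males. The hCYP2B6-Tg sexes did not overlap, and the males were 1.38-fold lower (log2 -0.46 ± 0.11, adjusted p = 0.00941), a call kept in all 16 leave-outs. In Cyp2b-null livers Bst2 differed by -0.26 ± 0.11 (adjusted p = 0.184). Rtp4, a transmembrane protein that inhibits viral replication, was lower in males over both genotypes (-0.46 ± 0.13, adjusted p = 0.0128). Mx2 passed there too (-0.59 ± 0.18, adjusted p = 0.0257), though not without Cyp2b-null female 3, Cyp2b-null male 1 or 3 or hCYP2B6-Tg male 3 or 4 (up to 0.0603). Mx1 read 1.76, 1.25, 1.96 and 1.46 CPM in Cyp2b-null females, 1.61, 0.815, 1.82 and 2.43 in hCYP2B6-Tg females, 1.63, 1.10, 0.947 and 1.87 in Cyp2b-null males and 1.53, 1.08, 0.900 and 1.90 in hCYP2B6-Tg males. The groups of Mx1 overlapped, and neither Mx1 (-0.26 ± 0.28) nor Rsad2 (-0.21 ± 0.15) was called between sexes.

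Ifi44, a cytoplasmic interferon-induced protein, had the largest sex difference of any member in Cyp2b-null livers. Ifi44 (chr3:151730922-151749910, minus strand) read 7.73, 15.9, 7.83 and 11.5 CPM in Cyp2b-null females and 7.67, 9.20, 8.33 and 10.1 in hCYP2B6-Tg females. Males read 4.15, 3.71, 3.52 and 3.17 CPM in Cyp2b-null and 1.37, 5.39, 3.49 and 4.99 in hCYP2B6-Tg livers, so all 8 males lay below all 8 females. The level was 2.95-fold lower in Cyp2b-null males (log2 -1.56 ± 0.28, adjusted p = 0.000609) and 2.30-fold lower in hCYP2B6-Tg males (log2 -1.20 ± 0.28, adjusted p = 0.00599), and neither call was lost in any leave-out. Parp14, an ADP-ribosyltransferase, read 60.2, 56.1, 42.4 and 48.8 CPM in Cyp2b-null females, 46.1, 43.3, 48.8 and 50.04 in hCYP2B6-Tg females, 46.04, 46.8, 36.4 and 31.8 in Cyp2b-null males and 33.6, 43.1, 33.8 and 35.4 in hCYP2B6-Tg males. Its hCYP2B6-Tg sexes did not overlap, and it passed over both genotypes (-0.37 ± 0.09, adjusted p = 0.00452) but in neither alone. Ifi27l2a read 11.2, 15.4, 14.97 and 12.4 CPM in Cyp2b-null females, 12.5, 9.20, 13.2 and 13.4 in hCYP2B6-Tg females, 7.58, 14.4, 8.93 and 10.4 in Cyp2b-null males and 9.62, 7.85, 10.6 and 9.14 in hCYP2B6-Tg males. Cyp2b-null male 2 lay among the females of its genotype. Ifi27l2a passed over both genotypes (-0.37 ± 0.13, adjusted p = 0.0465), a call lost in 11 leave-outs (up to 0.0958), all but those without Cyp2b-null female 1 or 5, hCYP2B6-Tg female 2, Cyp2b-null male 2 or hCYP2B6-Tg male 4. Ifi35 and Xaf1, both interferon-induced, had estimates of 0.02 ± 0.09 and -0.54 ± 0.20 and were not called.

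The guanylate-binding proteins are interferon gamma-induced GTPases that coat and break pathogen vacuoles, and Gbp3 had the smallest p of all members in each sex comparison. Gbp3 (chr3:142560016-142573213, plus strand) read 28.1, 36.6, 24.2 and 28.03 CPM in Cyp2b-null females and 22.6, 26.8, 28.8 and 28.3 in hCYP2B6-Tg females. Males read 13.4, 17.3, 8.66 and 7.91 CPM in Cyp2b-null and 13.3, 13.1, 8.78 and 11.3 in hCYP2B6-Tg livers, and the highest male lay below the lowest female. Group means were 29.2 ± 5.27 CPM in Cyp2b-null females, 26.6 ± 2.81 in hCYP2B6-Tg females, 11.8 ± 4.40 in Cyp2b-null males and 11.6 ± 2.09 in hCYP2B6-Tg males (SD, n = 4 each). Gbp3 was 2.47-fold lower in Cyp2b-null males (log2 -1.30 ± 0.20, adjusted p = 0.000115) and 2.31-fold lower in hCYP2B6-Tg males (log2 -1.21 ± 0.20, adjusted p = 0.000245), in every leave-out. Gbp7 read 47.1, 49.6, 39.6 and 42.8 CPM in Cyp2b-null females, 41.3, 47.98, 37.5 and 44.8 in hCYP2B6-Tg females, 34.1, 42.1, 20.2 and 23.2 in Cyp2b-null males and 29.6, 30.0, 21.5 and 25.9 in hCYP2B6-Tg males. It was 1.61-fold lower in hCYP2B6-Tg males (adjusted p = 0.0166), without overlap, and this was lost without hCYP2B6-Tg female 2 or 5 or hCYP2B6-Tg male 4 or 5 (up to 0.0558). The Cyp2b-null estimate was -0.58 ± 0.18, with an adjusted p of 0.0515. Gbp2 passed over both genotypes (-0.60 ± 0.19, adjusted p = 0.0379) but was lost in 10 leave-outs (up to 0.0775), all but those without Cyp2b-null female 4, hCYP2B6-Tg female 1, Cyp2b-null male 1, 2 or 4 or hCYP2B6-Tg male 3. Gbp6, which shares 59.7% of its 50-base stretches with relatives, reached -0.72 ± 0.23 (adjusted p = 0.0502).

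All 3 immunity-related GTPases were lower in males over both genotypes, and Igtp and Iigp1 passed in hCYP2B6-Tg livers. These proteins act on the vacuoles of intracellular parasites, with Irgm1 and Igtp as regulators and Iigp1 as effector. Igtp read 2.28, 2.49, 1.38 and 2.92 CPM in Cyp2b-null females, 2.56, 5.12, 1.97 and 1.66 in hCYP2B6-Tg females, 1.44, 2.06, 1.08 and 1.01 in Cyp2b-null males and 0.764, 2.15, 0.563 and 0.237 in hCYP2B6-Tg males. Its lowest library, hCYP2B6-Tg male 5, held 2 counts, and hCYP2B6-Tg male 3 lay among the females. Igtp also overlaps Irgm2 on the same strand over 162 bases and shares 12.3% of its 50-base stretches with it, so its level is uncertain. Igtp was 3.21-fold lower in hCYP2B6-Tg males (log2 -1.68 ± 0.49, adjusted p = 0.0269), which was lost without hCYP2B6-Tg female 2 or hCYP2B6-Tg male 2, 4 or 5 (up to 0.169). In Cyp2b-null livers its estimate was -0.69 ± 0.47 (adjusted p = 0.459). Over both genotypes Igtp was lower in males (-1.19 ± 0.34, adjusted p = 0.0164; 0.0638 without hCYP2B6-Tg female 2). Iigp1 read 540.2, 582, 419.5 and 435 CPM in Cyp2b-null females and 514, 521, 518 and 419 in hCYP2B6-Tg females, beside the male values given above. Each hCYP2B6-Tg male was below each hCYP2B6-Tg female, a 1.30-fold lower level (log2 -0.38 ± 0.11, adjusted p = 0.0271). That call was lost without hCYP2B6-Tg female 1, 2 or 4 or hCYP2B6-Tg male 2 or 4 (up to 0.0830), and the Cyp2b-null estimate was -0.11 ± 0.11 (adjusted p = 0.635). Over both genotypes Iigp1 was lower (-0.25 ± 0.08, adjusted p = 0.0292), lost in 9 leave-outs up to 0.0744, all but those without Cyp2b-null female 4 or 5, hCYP2B6-Tg female 5, Cyp2b-null male 1 or 2 or hCYP2B6-Tg male 3 or 5. Irgm1 was lower over both genotypes (-0.37 ± 0.11, adjusted p = 0.0231) but not without Cyp2b-null female 5, hCYP2B6-Tg female 1, Cyp2b-null male 3 or 4 or hCYP2B6-Tg male 4 (up to 0.0535).

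Cxcl10, the chemokine that draws CXCR3-bearing T cells, was not called between sexes or genotypes. It read 2.63, 4.37, 3.80 and 4.90 CPM in Cyp2b-null females, 3.23, 3.14, 6.66 and 4.48 in hCYP2B6-Tg females, 3.79, 4.26, 2.44 and 3.31 in Cyp2b-null males and 3.97, 3.38, 3.60 and 3.21 in hCYP2B6-Tg males. The groups overlapped, and the estimate over both genotypes was -0.25 ± 0.19 (adjusted p = 0.420). Some members overlap another gene on the opposite strand, among them Irf7, Cxcl10, Oasl1 and Dhx58, and the sources used here give no strand setting for the counting, so reads of such partners cannot be told apart. On the same strand, Igtp overlaps Irgm2 and Irf9 overlaps Rnf31.

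**Figure D4:**
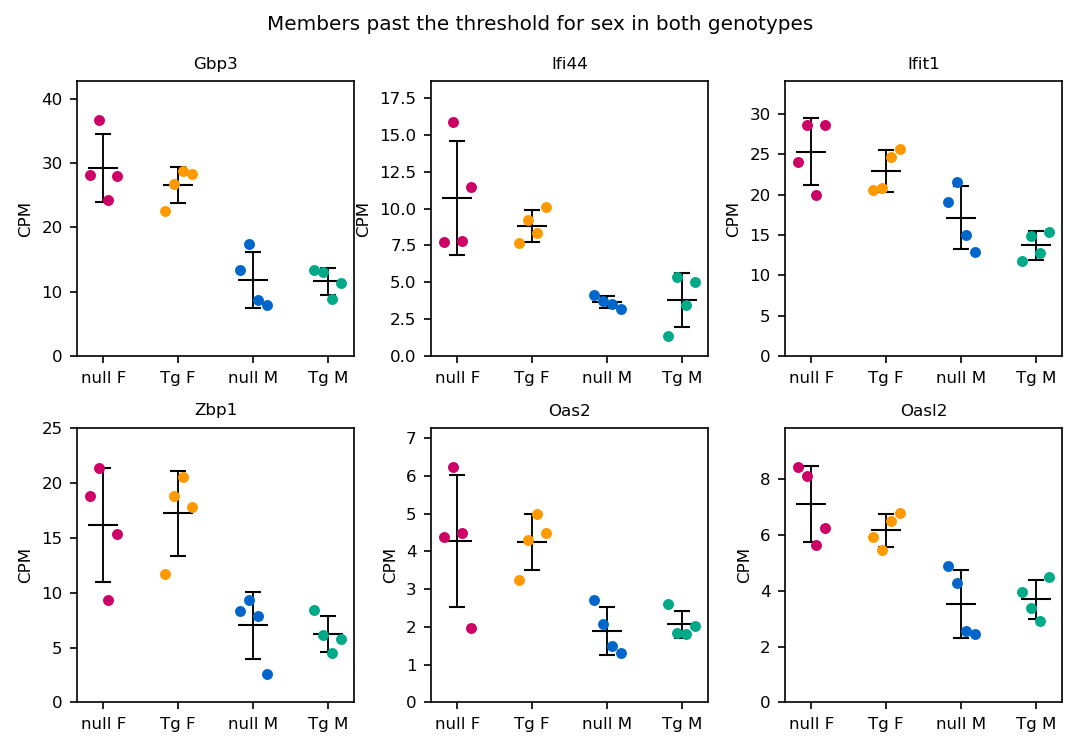
Each point is 1 library's CPM for the members called in both genotypes, Gbp3, Ifi44, Ifit1, Zbp1, Oas2 and Oasl2, with bars for the group mean and SD (n = 4 each). The male group means sit lower in every panel, without overlap over the 16 libraries for Gbp3, Ifi44 and Oasl2.

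Within a group the members moved together to different degrees. With group means subtracted, the correlation of a member's log2 CPM with the mean of the others over 16 libraries had a median of 0.54, from -0.18 for Rsad2 to 0.90 for Gbp3. The 4 guanylate-binding proteins had a median pairwise r of 0.72, the 6 synthetase genes 0.097. Oas1g and Oas3, of the synthetase genes, were among the least abundant members, and counting error lowers r at low counts. Its part in this gap was not tested. Cyp2b-null male 2 was the highest of its group in 25 of 36 members and Cyp2b-null male 4 the lowest in 24, while hCYP2B6-Tg male 4 was the lowest of its group in 21. Each r rests on all genes having been read in the same libraries, so these values are a description. Among the tested genes outside the set with the most similar profiles were Cxcl9 (r = 0.87), Apol9a (0.85), Ly6e (0.84), Gbp10, Vat1 and Gm4841 (0.83 each), Chn2 (0.82), Cd52 (0.81) and Herc6 (0.80), over the same 16 libraries.

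Upstream of the members, interferon transcripts were almost absent. Of 21 interferon genes, 19 had 0 counts in all 16 libraries, which allows up to 3 counts each, and Ifnk and Ifng had 19 and 20 counts in all. The 6 receptor genes, of which 5 were tested, gave 0 calls in every comparison, and the lowest adjusted p was 0.0782 for Ifngr1 over both genotypes (-0.23). Of 10 signal transducers, Irf1, the transcription factor first induced by interferon gamma, was lower in males in both genotypes (-0.54 ± 0.14 in Cyp2b-null, adjusted p = 0.0129, and -0.49 ± 0.13 in hCYP2B6-Tg, adjusted p = 0.0185). Irf2, a competitor of IRF1, was higher in hCYP2B6-Tg males (0.43 ± 0.11, adjusted p = 0.00859). Among 8 tested negative regulators, Ptpn6, a phosphatase of the JAK kinases, was lower in hCYP2B6-Tg males (-0.39 ± 0.12, adjusted p = 0.0333). Among 17 tested genes of nucleic acid sensing, Irak1 was higher in males of both genotypes, and Ticam1 and Unc93b1 were lower in hCYP2B6-Tg males.

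Of the other interferon-stimulated genes outside the set, more were called lower in males than higher. Of 59, 53 were tested: 6 were lower and 1 higher in Cyp2b-null males, and 10 were lower and 1 higher in hCYP2B6-Tg males, where 3.50% and 4.54% of all genes were called lower and 3.93% and 5.49% higher. Their medians were -0.33 and -0.27, against -0.0041 and -0.017 over all genes. Ly6e, a membrane protein that blocks coronavirus entry, was lower in Cyp2b-null males (log2 -0.86 ± 0.09, adjusted p = 3.26e-07) and in hCYP2B6-Tg males (log2 -0.74 ± 0.09, adjusted p = 3.00e-06). Lap3, an aminopeptidase, was the one that was higher, by 0.44 and 0.51. Of 12 other interferon gamma-induced GTPases, 0 passed in either genotype, with medians of -0.37 and -0.56, while Gbp8 and Irgm2 were lower over both genotypes. Of 14 tested interferon gamma targets, Psmb10 and Tap2, of the antigen-processing machinery, were lower in hCYP2B6-Tg males. Between genotypes, edgeR called 0 genes of each of these lists.

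Kupffer cell markers were mostly lower in males by their estimates. All 8 were detected and tested. The estimate lay below 0 for 8 in Cyp2b-null and 7 in hCYP2B6-Tg livers, against 50.6% and 52.5% of genes. Cd163 was the exception, at 0.15 ± 0.25 in hCYP2B6-Tg livers. Called lower were 3 of 8 in Cyp2b-null males (Vsig4, Clec4f and Csf1r; 3.50% of genes) and 1 in hCYP2B6-Tg males (Vsig4; 4.54%). The list medians were -0.61 and -0.34. Summed markers of monocytes and monocyte-derived macrophages had group means of 10.9 and 11.5 CPM in females and 10.9 and 10.5 in males, Cyp2b-null first. Summed Kupffer markers ran from 400.4 to 705 CPM in Cyp2b-null females, 426 to 561 in hCYP2B6-Tg females, 299 to 445 in Cyp2b-null males and 331 to 409 in hCYP2B6-Tg males. None of the 12 T and NK cell markers passed the count filter, Trac was at 0, and their sum ran from 5.62 to 9.67 CPM, 4.84 to 11.5, 2.45 to 8.80 and 3.67 to 6.41 in the same order. Of 8 adipocyte markers, Cidec and Cfd were called higher in males in both genotypes. Fabp4 was not called (0.67 ± 0.27 over both genotypes, edgeR adjusted p = 0.106), and the others did not pass the count filter. The summed level of the adipocyte list was 5.46 to 10.9, 6.41 to 7.87, 20.2 to 35.4 and 16.3 to 69.4 CPM. The summed level of the 36 members was 1284 ± 117 CPM in Cyp2b-null females, 1270 ± 59.4 in hCYP2B6-Tg females, 1063 ± 165 in Cyp2b-null males and 948 ± 79.7 in hCYP2B6-Tg males (SD, n = 4 each). Iigp1 was the largest single part of this sum, with group means of 494, 493, 456 and 378 CPM in the same order. Without Iigp1 the sum ran from 723 to 842, 707 to 813, 491 to 715 and 495 to 622 CPM. The part of these cell markers in the sex difference of the members was not tested, and in whole liver fewer cells of a type and less RNA per cell cannot be told apart.

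**Figure D5:**
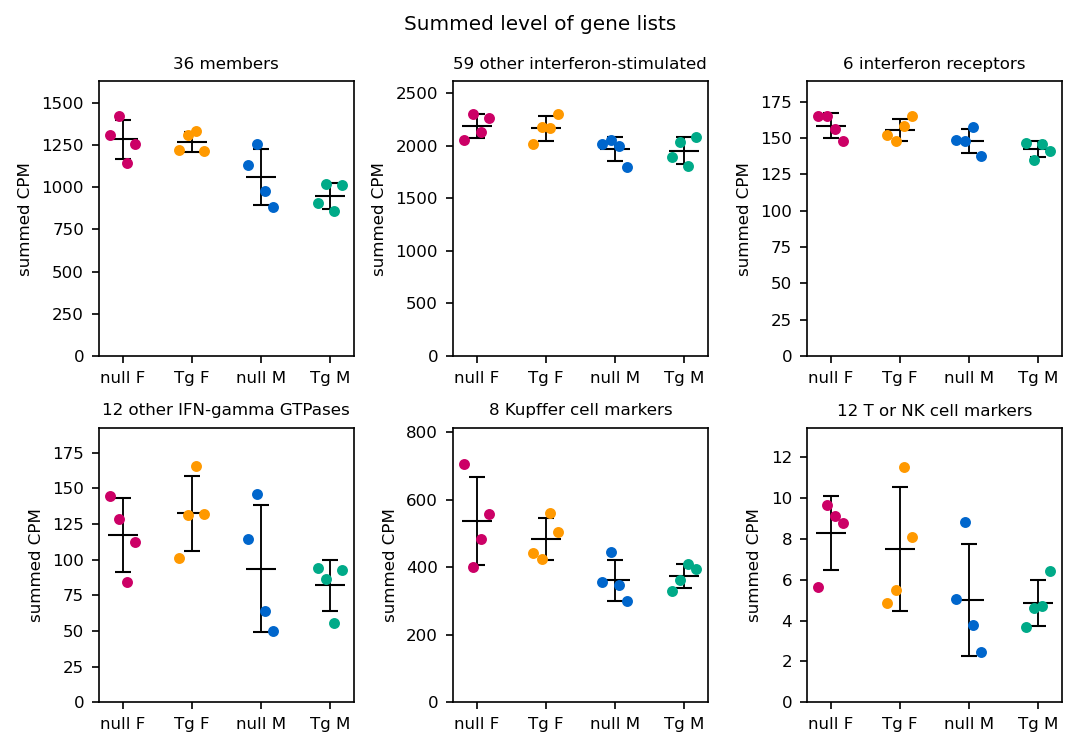
Each panel plots the summed CPM of 1 gene list by library, with bars for the group mean and SD (n = 4 each): the 36 members, 59 other interferon-stimulated genes, 6 receptors, 12 other interferon gamma GTPases, 8 Kupffer markers and 12 T and NK cell markers. The members' sum has a mean of 1284 and 1270 CPM in the female groups and 1063 and 948 in the male groups. Iigp1 is the largest single part of that sum. The Kupffer sums of males and females overlap in Cyp2b-null livers.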

How the data were processed

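Mouse liver RNA was sequenced as 16 NEB Next Ultra libraries after Trizol extraction, per the labels' protocols. The authors deposited 1 table of raw counts per gene symbol, not normalized. Tools named in the submitters' processing notes are edgeR, GSNAP, Subread, FastQC and Trimmomatic, with the build GRCm38.p6 but no role, version or strand setting. Its 3 empty columns were left out, and 16032 of 41585 rows held no count. Groups came from the genotype, sex and title labels. Here, edgeR 4.0.16 in R 4.3.3 was run on the deposited counts with filterByExpr (13470 genes left), TMM scaling, 1 model of 4 group means (12 residual degrees of freedom) and two-sided quasi-likelihood tests, with Benjamini-Hochberg adjustment over all genes tested and a threshold of 0.05. CPM, floors and RPKM used the TMM-scaled totals of the tested genes, log2 CPM a prior count of 2, and RPKM the GENCODE exon lengths of that build. Limma 3.58.1 (voom) and DESeq2 1.42.0 were alternatives, beside other scalings, filters, leave-outs and a replicate block. Libraries held 5584587 to 9672708 counts, and floors of 3 counts cover counting error only. The intervals of the genotype effect rest on edgeR's standard errors, so they also hold the spread between these libraries.

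The members and the gene lists were chosen with earlier results of these data known. Values in every library are given for members past the threshold (at most 12 per comparison, smallest adjusted p first), the 3 with the smallest p where none passed, the member with the widest range in each role and the 3 most and 3 least abundant, 23 in all. Same-numbered libraries were checked for pairing, and their deviations correlated between -0.107 and 0.122, so the numbers were not treated as pairs. Markers of further liver cells, from lists named by cell type, were compared between the sexes over both genotypes. Of 8 hepatocyte markers Apob and Ttr were called higher in males and Alb lower. Cd79b of the B cells and Dcn of the stellate cells were lower, and Cela1 of the acinar cells was higher. The calls were 0 among tested markers of monocytes, dendritic cells, neutrophils, sinusoidal endothelium and cholangiocytes. Apart from the sinusoidal endothelium, few of these were tested. They were Ccr2 and Plac8 of monocytes, Tcf4, Clec9a and Zbtb46 of dendritic cells, and Csf3r of neutrophils. Of cholangiocytes they were Epcam, Spp1 and Sox9. The other markers of these cells did not pass the count filter. A gene of the signal transducer list is not reported here by name.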

Additional observations from a re-analysis of the deposited data

Results flagged for a closer look

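In 92 groups of 4 libraries (the 23 members given library by library), 4 had 1 library far from the other three, where chance marks about 1 group in 20. Oas3 stood at 2.0 CPM in hCYP2B6-Tg male 3, against 0.900 to 1.07 in the others of its group. Irf7 stood at 35.1 CPM in Cyp2b-null female 3, below 38.9 to 39.6. Stat2 stood at 39.2 CPM in hCYP2B6-Tg male 4, below 52.0 to 53.4, and this is a library without which the Stat2 call between hCYP2B6-Tg sexes was lost. Iigp1 stood at 419 CPM in hCYP2B6-Tg female 5, below 514 to 521.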

How the results depend on the processing

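No member was called between genotypes, and none was called higher in males, under any of the settings run. Genes called between genotypes numbered 12 in females, 62 in males, 34 over both sexes and 36 for the difference with no filter, and 8, 38, 22 and 16 with DESeq2; limma voom gave 11 in males. Without the male libraries numbered 4, a setting chosen after seeing the data, they were 0 in males, 1 over both sexes and 0 for the difference. Leaving out 1 library gave 0 to 3, 2 to 22, 0 to 4 and 0 to 19 such genes, and 0 members. Members lower in males were 5 in Cyp2b-null livers when only those groups were fitted (3.04% of genes lower) and 17 in hCYP2B6-Tg livers with library totals as the only scaling (5.58% lower, median of all genes -0.056). They were 6 in hCYP2B6-Tg livers (3.50%) and 14 over both genotypes (6.32%) without the males numbered 4; the cause was not tested. Leaving out 1 library gave 4 to 10 members (741 to 1034 genes) in Cyp2b-null, 5 to 15 (956 to 1449) in hCYP2B6-Tg and 17 to 26 (1980 to 2232) over both genotypes, the last being lowest without Cyp2b-null male 3 or hCYP2B6-Tg male 4. A replicate block by title number, which does not pair these libraries, gave 2 genes in females, 5 in males and 11 for the difference, and 9, 12 and 20 members lower in males in Cyp2b-null, hCYP2B6-Tg and both (3.27%, 4.10% and 7.46% of genes). Of the called members' values, 896 kept their call over the alternatives, 156 lost it and 0 reversed. This tally includes leave-outs of libraries outside the groups compared, which leave the compared libraries unchanged. It also includes the comparison over both genotypes, which was added after the data had been seen. Every member passed the filter, so the exact test planned for members below it was not run.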
